A study of Mus musculus with 13 samples.

Results

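The aryl hydrocarbon receptor (Ahr), its DNA-binding partner Arnt, the repressor Ahrr and the targets Cyp1a1, Cyp1b1 and Tiparp were followed in cultured Yumm1.7 cells, a mouse melanoma line labelled as wild type. These 6 genes were picked by symbol from the 54532 genes of the count table, and all 6 had a row. RNA was sequenced as total RNA or after precipitation with J2, an antibody to double-stranded RNA, with Z22, an antibody to Z-form RNA, or with IgG as the control antibody. Each of the 13 libraries stands for a condition of its own, so no difference described here has a replicate check, no test between conditions was made, and every interval covers counting error only.

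Cells received DMSO as the vehicle, ADAR1i-124 at 10 μM over 12 h, 5-Aza-CdR at 1 μM over 72 h, or both drugs, called the combination. ADAR1i-124 is a small molecule inhibitor of the RNA-editing enzyme ADAR1, and 5-Aza-CdR (decitabine) inhibits DNA methyltransferases. In the combination, ADAR1i-124 followed 5-Aza-CdR. The labels give no dose for it, and the study used ADAR1i-124 at both 1 μM and 10 μM with 5-Aza-CdR, so the dose behind the precipitated libraries of the combination is uncertain. How the IgG cells were treated is not given in the sources used here. The cells are a single established line, so nothing here speaks to other melanomas, and in bulk RNA fewer cells expressing a gene cannot be told apart from less RNA per cell.

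AhR is a transcription factor of the bHLH-PAS family that waits in the cytoplasm with Hsp90 and co-chaperones until a ligand binds. It then enters the nucleus, pairs with Arnt and binds short dioxin response elements next to genes of xenobiotic metabolism. Among its ligands are dioxins, plant compounds and breakdown products of tryptophan, and in skin it responds to environmental toxicants. Arnt also serves as the partner of the hypoxia-inducible factors.

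The 12 libraries used held 8167960 to 34571822 counts, the largest being total RNA of 5-Aza-CdR-treated cells. The total RNA library of the combination was left out because its 1245894 counts follow the opposite strand. It held 20 counts of the actin gene Actb against 109635 to 180429 in the other total RNA libraries, and it held 2 counts of Ahr beside 41 of Gm48236, a noncoding gene that lies on the other strand and overlaps Ahr by 618 bases. The Z22 library of DMSO-treated cells also stood apart, with 34.9% of its counts in the single gene Gm42418 against 10.6% to 15.8% in the other Z22 libraries. The melanocyte identity on the label was checked against 6 markers. Mitf, a melanocyte transcription factor, was present in all 12 libraries at 96 to 1145 counts, whereas Tyr was at 0 in all of them and Dct, Mlana and Sox10 never passed 2 counts. Pmel had 0 to 15 counts. The pigment-cell markers that define the lineage were thus at or near 0 apart from Mitf.

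The promoter sequences of the targets are shown first, because they carry the element through which AhR and Arnt act and because they differ in CpG content, the substrate of DNA methylation. No methylation was measured in these samples. The sequences are RefSeq promoters of build GRCm38.p6, from 250 bases before to 50 bases after the start site, and 5 of the 6 genes had an entry. Capitals mark GCGTG, the core of the dioxin response element, or CACGC, the same core read on the other strand. The Tiparp promoter is on the plus strand at chr3:65528197-65528496, the Ahrr promoter on the minus strand at chr13:74292282-74292581 and the Cyp1a1 promoter on the plus strand at chr9:57697363-57697662. The last line is the upstream stretch of Cyp1a1 at chr9:57696503-57696802, from -1110 to -811 relative to the start site. It was chosen among windows of 300 bases in the 1500 bases searched. It held the most matches of TNGCGTG, an extended form of the core.
Tiparp promoter: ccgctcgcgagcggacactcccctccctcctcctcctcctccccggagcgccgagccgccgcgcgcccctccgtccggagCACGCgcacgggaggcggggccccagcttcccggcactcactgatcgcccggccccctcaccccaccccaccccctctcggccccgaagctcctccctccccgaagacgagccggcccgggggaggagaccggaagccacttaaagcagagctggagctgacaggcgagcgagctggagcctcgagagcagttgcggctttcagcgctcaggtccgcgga
Ahrr promoter: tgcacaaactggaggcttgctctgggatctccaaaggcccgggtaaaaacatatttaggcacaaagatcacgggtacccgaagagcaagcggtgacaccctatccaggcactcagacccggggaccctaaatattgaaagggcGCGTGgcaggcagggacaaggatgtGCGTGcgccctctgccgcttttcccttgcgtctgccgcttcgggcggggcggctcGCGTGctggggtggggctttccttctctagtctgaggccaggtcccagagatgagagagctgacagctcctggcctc
Cyp1a1 promoter: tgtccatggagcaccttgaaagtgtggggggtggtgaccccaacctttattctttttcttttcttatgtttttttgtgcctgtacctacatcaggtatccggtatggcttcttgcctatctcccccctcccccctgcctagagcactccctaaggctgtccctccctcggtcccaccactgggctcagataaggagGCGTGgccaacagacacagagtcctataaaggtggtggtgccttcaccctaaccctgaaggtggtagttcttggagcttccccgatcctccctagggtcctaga
Cyp1a1 upstream: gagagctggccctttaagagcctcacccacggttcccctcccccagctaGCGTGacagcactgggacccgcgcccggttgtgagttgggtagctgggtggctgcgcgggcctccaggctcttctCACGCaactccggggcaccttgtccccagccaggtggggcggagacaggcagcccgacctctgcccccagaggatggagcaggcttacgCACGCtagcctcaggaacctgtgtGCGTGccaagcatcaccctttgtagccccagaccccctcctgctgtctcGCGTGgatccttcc

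The core GCGTG is common. It occurred on either strand in 32.4% of 32851 promoters of this length, and the promoters of Tiparp, Cyp1a1, Cyp1b1 and Arnt each held it once. The Ahrr promoter held 3, a number reached by 3.91% of promoters. The extended form TNGCGTG, whose matches are all matches of the core as well, was found in 5.07% of promoters and among these genes only in that of Ahrr, once.

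**Figure D1:**
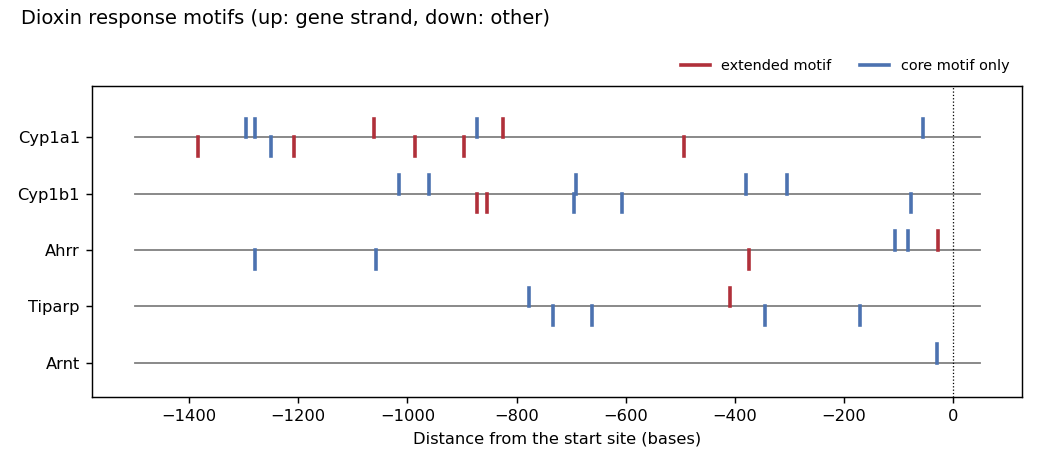
Matches of the core element (blue) and of the extended element (red) from 1500 bases before to 50 bases after the start site (x axis, bases) of 5 genes (rows), drawn upward on the strand of the gene and downward on the other. Cyp1a1 has 12 core matches, of which 7 are extended, and Arnt has 1.

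In the longer window Cyp1a1 held 12 core matches, a number reached by 0.0914% of 32820 regions, and 7 of them were extended, a number reached by 0.00609%. Its upstream stretch printed above held 5 core matches, 4 of them extended, and was chosen for holding the most extended ones. Cyp1b1 held 10 core matches, reached by 0.262% of regions, and Tiparp and Ahrr held 6 each, reached by 3.08%. Arnt held 1, a number reached by 63.7%. A match describes letters and does not show that the factor binds there. In CpG content Cyp1a1 was the poorest of the 5 promoters. It held 4 CpG dinucleotides, against 34 in Tiparp, 19 in Arnt, 17 in Ahrr, 16 in Cyp1b1 and a median of 7 over all promoters. The upstream stretch of Cyp1a1 printed above, which is of the same length, held 16.

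Ahr lies on the minus strand of chromosome 12 at 35497974 to 35535038. In total RNA it had 879 counts or 51.7 CPM (counts per 1e6 counts of the library) with DMSO, 971 counts or 55.1 CPM after ADAR1i-124 and 3596 counts or 104 CPM with 5-Aza-CdR. The J2 libraries held 28.0 CPM after DMSO, 25.6 after ADAR1i-124, 36.2 after 5-Aza-CdR and 43.1 with both drugs. In the Z22 libraries the DMSO value was 5.96 CPM from 52 counts, against 30.4 after ADAR1i-124, 26.9 after 5-Aza-CdR and 36.1 with both drugs, and the IgG library held 40.5. The receptor was highest in total RNA after 5-Aza-CdR and lowest in the Z22 library of DMSO-treated cells, 17.5-fold apart. Without that library, which stood apart in its Gm42418 share, the lowest level was the 25.6 CPM of the J2 library with ADAR1i-124, and the range was 4.06-fold. When the 12 libraries were ordered by Ahr level, the exact 95% Poisson intervals of 8 of the 11 neighbouring pairs overlapped. The 3 steps without overlap set the highest library, the next pair of total RNA libraries and the lowest library apart from the rest.

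Arnt lies on the plus strand of chromosome 3 at 95434388 to 95497240. Its levels in total RNA were 135 CPM after DMSO, 109 after ADAR1i-124 and 146 with 5-Aza-CdR, from 1922 to 5045 counts. In J2 RNA it had 105 CPM after DMSO, 66.8 after ADAR1i-124, 66.0 after 5-Aza-CdR and 79.5 with both drugs. With Z22 it had 55.0, 73.2, 104 and 90.6 CPM in the same order, and the IgG library held 63.2. Arnt was the steadiest of the genes with appreciable counts, its highest library being 2.65-fold above its lowest, or 2.31-fold without the Z22 library of DMSO-treated cells. The processed pseudogene Gm42672 overlaps Arnt by 352 bases on the same strand and held 4 to 188 counts of its own, so some reads could be assigned to either.

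Tiparp encodes an ADP-ribosyltransferase that is induced by AhR and represses it in turn. It lies on the plus strand of chromosome 3 at 65528410 to 65555518. In total RNA it had 1334 counts or 78.4 CPM after DMSO, 944 counts or 53.6 CPM after ADAR1i-124 and 3942 counts or 114 CPM with 5-Aza-CdR. The J2 libraries held 40.9 CPM after DMSO, 37.9 after ADAR1i-124, 72.6 after 5-Aza-CdR and 46.4 with both drugs. The Z22 libraries held 7.68, 33.9, 52.5 and 42.9 CPM in that order, and the IgG library held 57.5. Within each kind of RNA the 5-Aza-CdR library was the highest. On the strand opposite Tiparp, 4931440P22Rik overlaps it by 970 bases but held only 1 to 24 counts.

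**Figure D2:**
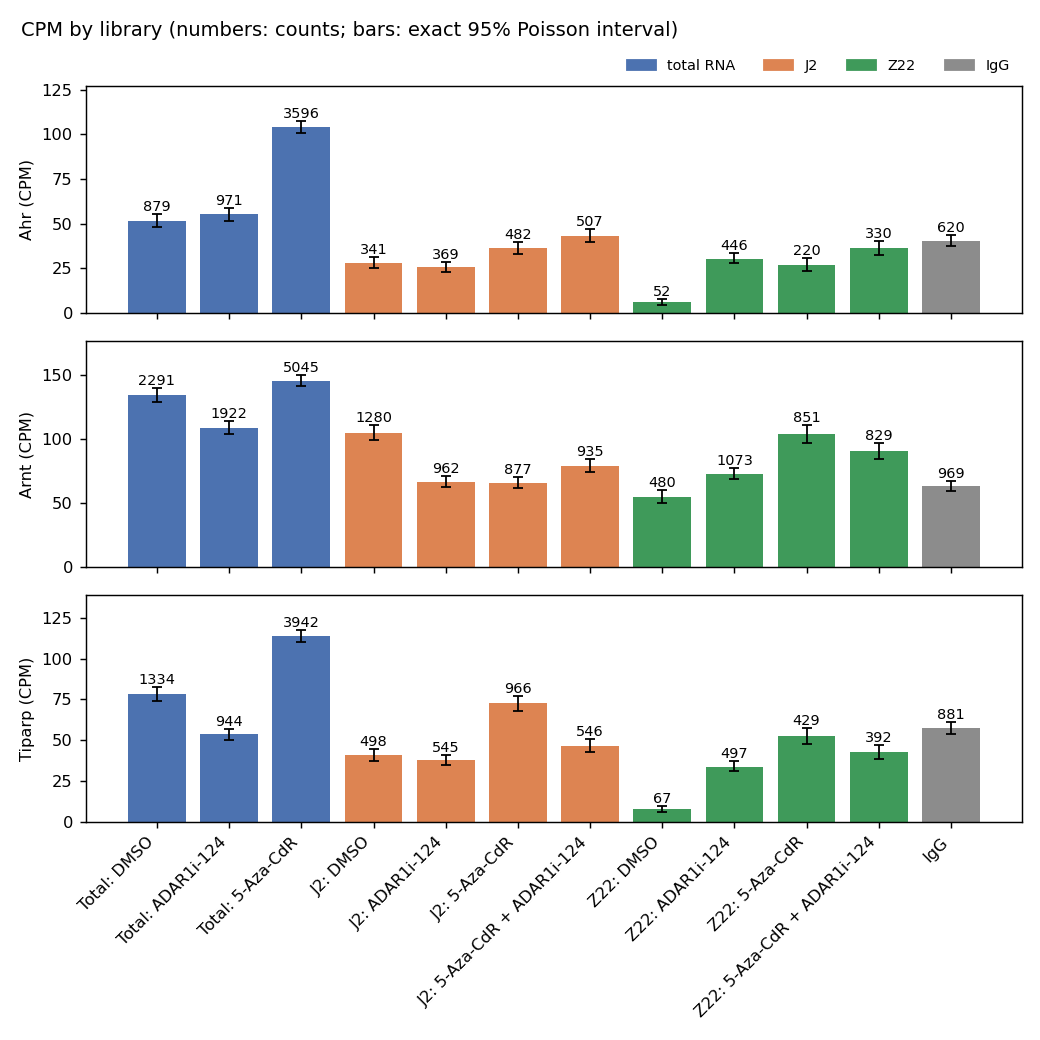
CPM (y axis) of Ahr, Arnt and Tiparp in each of the 12 libraries (x axis, coloured by the kind of RNA), with exact 95% Poisson intervals and the count printed above each bar. Ahr and Tiparp peak in total RNA of 5-Aza-CdR-treated cells at 104 and 114 CPM and are lowest in the Z22 library of DMSO-treated cells at 5.96 and 7.68 CPM.

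Per kilobase of exon, the median levels over the 12 libraries were 11.3 CPM for Tiparp, 10.6 for Arnt and 5.87 for Ahr. Cyp1a1 was at 0.0813 CPM per kilobase, and the medians of Ahrr and Cyp1b1 were 0.00713 and 0. The receptor, its partner and the target Tiparp were thus expressed, while Cyp1a1, Cyp1b1 and Ahrr were near the limit of detection.

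Cyp1a1, annotated by GENCODE on the plus strand of chromosome 9 at 57687928 to 57703824, a span that holds both of its printed sequences, encodes the cytochrome P450 that oxidises many AhR ligands and is the best known target of the receptor. It had 1 count after DMSO, 15 after ADAR1i-124 and 22 with 5-Aza-CdR in total RNA. The J2 libraries held 0 counts after DMSO, 3 after ADAR1i-124, 7 after 5-Aza-CdR and 13 with both drugs. The Z22 libraries held 1, 2, 2 and 8 counts in the same order, and the IgG library held 1. Each treatment had more counts than DMSO of the same kind of RNA, by a single count for the separate drugs in Z22 RNA, and the combination held the most in both precipitated sets. For the count of 0 in the J2 library of DMSO-treated cells, a floor of 3 counts corresponds to 0.246 CPM and the exact 95% Poisson interval ends at 0.303 CPM.

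Cyp1b1, the related cytochrome P450 on the minus strand of chromosome 17 at 79701537 to 79715061, was at 0 in 8 of 12 libraries, where the floor of 3 counts lies at 0.170 to 0.344 CPM and the exact intervals end at 0.209 to 0.423 CPM. Its counts were 14 in total RNA of 5-Aza-CdR-treated cells, 2 in the Z22 library of the same treatment, and 1 each in total RNA with DMSO and in the IgG library. Ahrr, the repressor that competes with AhR for Arnt, lies on the minus strand of chromosome 13 at 74211118 to 74292331. In total RNA it had 0 counts after DMSO, 1 after ADAR1i-124 and 10 after 5-Aza-CdR. The J2 libraries held 2 counts with the vehicle, 1 after ADAR1i-124, 5 after 5-Aza-CdR and 0 with both drugs. The Z22 libraries held 0, 0, 3 and 1 in that order, and the IgG library held 1. In each kind of RNA the largest Ahrr count belonged to the 5-Aza-CdR library. For Cyp1a1, Cyp1b1 and Ahrr, the Poisson intervals of all 11 neighbouring libraries in order of level overlapped.

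**Figure D3:**
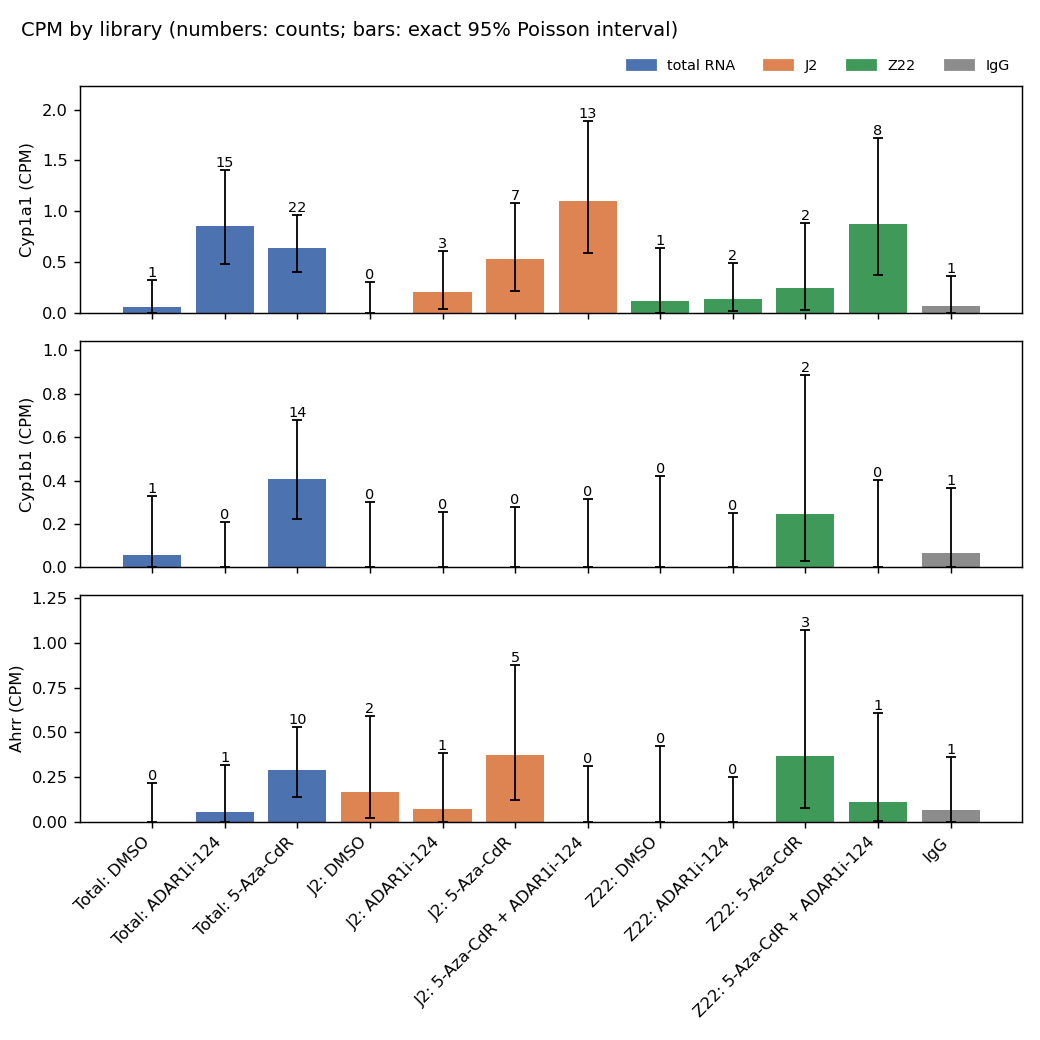
CPM (y axis) of Cyp1a1, Cyp1b1 and Ahrr in the 12 libraries (x axis), with exact 95% Poisson intervals and the count above each. Cyp1a1 reaches 22 counts in total RNA with 5-Aza-CdR and 13 in the J2 library of the combination, and most other bars rest on 0 to 3 counts.

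Summed over total, J2 and Z22 RNA, Cyp1a1 had 2 counts in the 3 libraries of DMSO, 20 in the 3 of ADAR1i-124, 31 in the 3 of 5-Aza-CdR and 21 in the 2 of both drugs. These are 0.0527 CPM with DMSO (exact Poisson interval 0.00639 to 0.190), 0.428 with ADAR1i-124 (0.262 to 0.662), 0.553 with 5-Aza-CdR (0.376 to 0.785) and 1.004 with both drugs (0.622 to 1.53). The DMSO interval ended below the other 3, but for the separate drugs this rested on total RNA, which held 15 of the 20 counts of ADAR1i-124 and 22 of the 31 of 5-Aza-CdR. Over J2 and Z22 RNA alone, Cyp1a1 was at 0.0478 CPM with DMSO (0.00121 to 0.266), 0.172 with ADAR1i-124 (0.0559 to 0.402) and 0.419 with 5-Aza-CdR (0.192 to 0.796). These 3 intervals overlapped, and that of both drugs, which holds J2 and Z22 RNA only, stayed above the DMSO one. The sums of Ahrr were 2 counts after DMSO, 2 after ADAR1i-124, 18 after 5-Aza-CdR and 1 with both drugs, and those of Cyp1b1 were 1, 0, 16 and 0. Without total RNA the sums after 5-Aza-CdR were 8 counts for Ahrr and 2 for Cyp1b1. The sums mix kinds of RNA, and the combination lacks total RNA.

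The first comparison asked how the pathway differed after the demethylating drug. In total RNA, 5-Aza-CdR-treated cells had 2.01-fold the Ahr level of DMSO-treated cells, a log2 difference of 1.003 with a counting interval of 0.90 to 1.12. Tiparp was 1.45-fold higher (log2 0.54, interval 0.45 to 0.63), and Arnt differed by 0.12 on the log2 scale (0.04 to 0.19). Folds and intervals are of the plain CPM ratio, whereas log2 differences were taken from log2 of CPM + 0.5, which understates changes of low genes, and were counted at a 2-fold line among genes that averaged 1 CPM or more over the compared libraries. Ahr, Arnt and Tiparp passed that filter in every comparison and the other 3 genes in none. Of the 3, only Ahr reached the line, where 17% of all 14391 genes tested were higher and 8.96% lower by as much. It reached it by a margin smaller than its counting interval, and 83.0% of the genes had a lower value, against 70.8% for Tiparp and 52.6% for Arnt. The Ahr difference ranged from 0.93 to 1.03 over 7 settings of scaling, centring and pseudocount, the reported one included, and fell short of the line with edgeR's TMM factors, DESeq2's size factors, centring or a pseudocount of 2 CPM.

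The low targets pointed the same way in counts. Against DMSO in total RNA, Cyp1a1 was 10.8-fold higher with an interval of 1.75 to 447, and Cyp1b1 6.89-fold with an interval of 1.05 to 291. Ahrr had 10 counts against 0, which is at least 1.64-fold higher when taken against the floor of 3 counts in the DMSO library, and its counting interval starts at 1.10-fold. In total RNA the fibroblast markers Col1a1, Col1a2, Pdgfra and Dcn summed to 69.7 CPM after DMSO, 358 after ADAR1i-124 and 668 after 5-Aza-CdR, and 4 endothelial markers, mostly Cdh5, to 4.23, 18.4 and 83.2 CPM. All 4 of each list were at 3 counts or more after 5-Aza-CdR, and their part in these differences was not tested.

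In the J2 libraries, 5-Aza-CdR gave a log2 difference of 0.37 for Ahr (0.17 to 0.58), 0.82 for Tiparp (0.67 to 0.99) and -0.67 for Arnt (-0.80 to -0.55). None of the 3 reached the line, where 8.61% of genes were higher and 6% lower. Cyp1a1 had 7 counts against 0, at least 2.14-fold higher against the floor of 3 counts, with a counting interval that starts at 1.32-fold. The fibroblast markers here summed to 413 CPM with DMSO and 23.1 with 5-Aza-CdR and the endothelial ones to 8.95 and 61.9. Most of the fibroblast difference was Col1a2, at 4425 counts with DMSO and 74 with 5-Aza-CdR. Pdgfra had 526 and 144 counts, Col1a1 52 and 50 and Dcn 24 and 39. The part of these markers in the differences was not tested.

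In the Z22 libraries the differences were larger, at 2.09 for Ahr (1.73 to 2.64), 2.697 for Tiparp (2.40 to 3.17) and 0.92 for Arnt (0.76 to 1.09). Ahr and Tiparp were past the line, but so were 52.1% of all genes, while 4.1% were lower by as much, and the median of all genes was itself 1.06 above DMSO. Relative to that median Ahr was at 1.03, Tiparp at 1.64 and Arnt at -0.14, and both Ahr and Tiparp remained past the line, where 18.4% of genes then were. This comparison rests on the DMSO library with 34.9% of its counts in Gm42418 and with a fibroblast sum of 1132 CPM against 27.7 after 5-Aza-CdR, and the endothelial sums were 7.33 and 32.2 CPM. Most of that fibroblast difference was Col1a2, at 9189 counts with DMSO and 40 with 5-Aza-CdR. Col1a1 had 583 and 122 counts, Pdgfra 107 and 59 and Dcn 1 and 5. The part of these in the differences was not tested. Against the IgG library instead, the Z22 library of 5-Aza-CdR-treated cells was at -0.58 for Ahr and -0.13 for Tiparp.

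**Figure D4:**
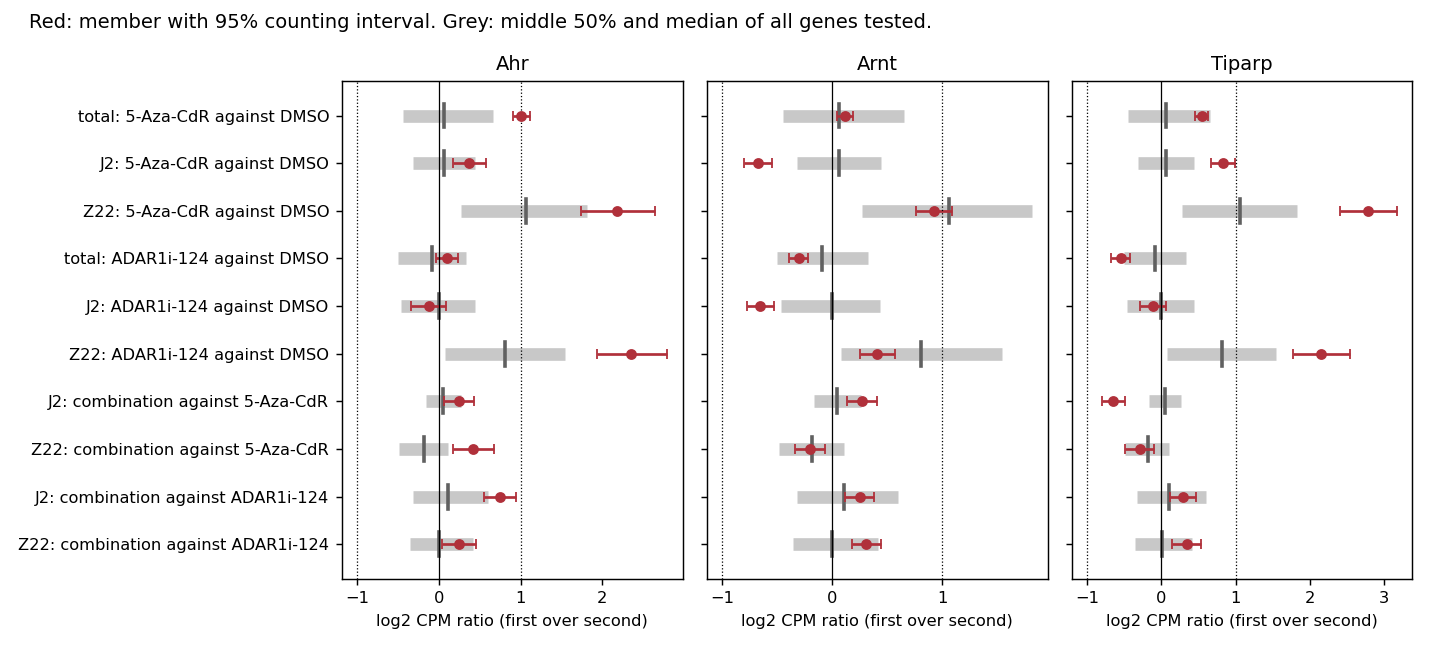
Log2 ratio of CPM (x axis) of Ahr, Arnt and Tiparp in 10 comparisons of libraries (rows), red points with exact 95% counting intervals. Grey bars are the middle 50% of all genes tested with a tick at their median, dotted lines are the 2-fold line, and the Z22 comparisons with DMSO have medians of 1.06 and 0.81.

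With ADAR1i-124 alone the receptor was close to its DMSO level in total RNA, at a log2 difference of 0.09 for Ahr (-0.04 to 0.23), while Arnt was at -0.30 (-0.39 to -0.22) and Tiparp at -0.54 (-0.67 to -0.43). Cyp1a1 went the other way, 14.5-fold higher from 15 counts against 1, with an interval of 2.23 to 610. In the J2 libraries Ahr was at -0.12, Tiparp at -0.11 and Arnt at -0.65. None of the 3 reached the line in either kind of RNA, where 7.71% and 8.7% of genes in total RNA and 7.37% and 10.8% in J2 RNA were higher and lower. Both the ADAR1i-124 and the 5-Aza-CdR comparisons use the same DMSO library in each kind of RNA, so their likeness is not independent.

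In the Z22 libraries ADAR1i-124 gave 2.26 for Ahr, 2.07 for Tiparp and 0.41 for Arnt, with a median over all genes of 0.81. Relative to it they were at 1.45, 1.26 and -0.40. Ahr and Tiparp were past the line with and without this centring, where 42.9% of genes were higher before it (and 5.13% lower) and 17.6% after it. The same DMSO library stands in the denominator, with fibroblast markers, mostly Col1a2, at 1132 CPM against 129 after ADAR1i-124.

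Adding ADAR1i-124 to 5-Aza-CdR was compared in the precipitated RNA. Ahr was higher by 0.25 in J2 (0.07 to 0.43) and by 0.41 in Z22 RNA (0.17 to 0.67). Tiparp was lower, at -0.64 in J2 (-0.80 to -0.49) and -0.29 in Z22 RNA (-0.49 to -0.09). Only 2.97% of genes had a lower value than Tiparp in the J2 comparison, though it did not reach the line. None of the 3 genes did, against 1.44% higher and 0.641% lower in J2 and 2.28% and 7.11% in Z22 RNA, where the median of all genes was -0.18. Relative to that median Ahr was at 0.60, Tiparp at -0.11 and Arnt at -0.02. The fibroblast sums were 69.1 CPM with both drugs against 23.1 with 5-Aza-CdR in J2 and 90.7 against 27.7 in Z22 RNA. The endothelial sums were 61.4 against 61.9 and 26.8 against 32.2 CPM. The part of these markers in the differences was not tested.

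Against ADAR1i-124 alone, the combination had more Cyp1a1, 13 counts to 3 in J2 (5.30-fold, interval 1.46 to 29.0) and 8 to 2 in Z22 RNA (6.41-fold, interval 1.28 to 62.0). The endothelial sums were 61.4 CPM with both drugs against 3.75 with ADAR1i-124 in J2 and 26.8 against 4.36 in Z22 RNA, and the fibroblast sums 69.1 against 27.4 and 90.7 against 129. Their part in these differences was not tested. Against 5-Aza-CdR alone the Cyp1a1 intervals included no difference, at 2.10-fold (0.778 to 6.21) in J2 and 3.57-fold (0.713 to 34.5) in Z22 RNA. Ahr was higher than with ADAR1i-124 by 0.74 in J2 and 0.24 in Z22 RNA. None of the 3 expressed genes reached the line, where 14.3% of genes were higher and 5.64% lower in J2 and 9.91% and 6.3% in Z22 RNA. The J2 median was 0.11, so Ahr was 0.63 above it.

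The precipitated libraries were also set against IgG. In the J2 library of DMSO-treated cells Arnt was at a log2 difference of 0.73 (0.61 to 0.85), Ahr at -0.52 (-0.73 to -0.34) and Tiparp at -0.49 (-0.65 to -0.33). None reached the line, where 13.5% of genes were higher and 8.97% lower. In the Z22 library of DMSO-treated cells Ahr was at -2.66 and Tiparp at -2.83, and both were past the line together with 45.4% of genes, while 11.3% were higher by as much. Relative to the median of -0.83 they were at -1.84 and -1.998 and Arnt at 0.63, and 24.2% of genes were then lower by as much. The fibroblast sums, mostly Col1a2, were 413 CPM in J2 and 1132 in Z22 RNA with DMSO against 88.8 with IgG. Gm42418 held 18.9% and 34.9% of counts against 14.2%. The part of these in the differences from IgG was not tested. In the other 3 Z22 libraries Ahr was at -0.58 to -0.16 and Tiparp at -0.75 to -0.13 against IgG, and Arnt at 0.21 to 0.72.

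The genes around the receptor were followed in lists by role, which are described by counts alone and were not tested against each other or against all genes. In total RNA after 5-Aza-CdR, against a background of 17% higher and 8.96% lower and a median of 0.06 over all genes, the receptor complex of 6 genes had 3 lower, none higher and a median of -0.79. The 3 were Hsp90aa1 at -1.15 and Hsp90ab1 at -1.11, the cytosolic chaperones of the receptor, and Ptges3 at -1.27, their co-chaperone p23. Cul4b, the cullin of the ubiquitin ligase that AhR joins, was at -0.47. In J2 RNA the same list had none past the line and a median of 0.63, where 8.61% of all genes were higher and 6% lower. In Z22 RNA it had 2 higher, 1 lower and a median of -0.08, where 52.1% of all genes were higher and 4.1% lower and their median was 1.06.

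Of 16 other AhR targets, 13 passed the filter in total RNA after 5-Aza-CdR, with 7 higher, 1 lower and a median of 1.62. The filter admitted 3 of them, Aldh3a1, Ugt1a6a and Il6, only through their level after 5-Aza-CdR, and the other 10 had 4 higher, 1 lower and a median of 0.75. Of all genes tested there, 17% were higher and 8.96% lower, with a median of 0.06. Serpinb2, which encodes a plasminogen activator inhibitor, was at 372 CPM with 5-Aza-CdR against 32.7 with DMSO, a log2 difference of 3.49. It was also higher by 3.01 in J2 and 3.81 in Z22 RNA, and by 3.42 in total RNA with ADAR1i-124. The glucuronosyltransferases Ugt1a7c and Ugt1a6b, which conjugate xenobiotics, were higher by 3.32 and 2.93, although genes of this locus share exons and their reads may be divided uncertainly. Slc7a5, the large neutral amino acid carrier through which tryptophan enters cells, was the list's lower gene, at 89.4 CPM against 440.0 (-2.29), and was lower in J2 (-0.98) and Z22 RNA (-1.71) as well. In J2 RNA the list had 3 higher and none lower of 12, with a median of 0.39, where 8.61% of all genes were higher and 6% lower. In Z22 RNA it had 7 higher and 1 lower of 10, with a median of 1.50, where 52.1% of all genes were higher, and 2 of the 7 passed only through 5-Aza-CdR. With ADAR1i-124 it had 4 higher and none lower of 13 in total RNA (median 0.37), where 7.71% of all genes were higher and 8.7% lower. Of these 13, 3 passed through 1 of the libraries only, and the other 10 had 3 higher, none lower and a median of 0.32. In J2 RNA it had 1 higher and 6 lower of 12 (median -0.72), against 7.37% and 10.8% of all genes. There 4 of the 6 passed only through the DMSO library, and the other 8 genes had 1 higher, 2 lower and a median of -0.05. The fibroblast sum in J2 RNA, mostly Col1a2, was 27.4 CPM with ADAR1i-124 against 413 with DMSO, and its part was not tested.

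In total RNA after 5-Aza-CdR the other bHLH-PAS genes, the family of AhR and Arnt, had 6 higher and none lower of 11 that passed. Their median was 1.12. Without Hif3a, which passed only through 5-Aza-CdR, 5 of 10 were higher and the median was 0.61. Of all genes there, 17% were higher and 8.96% lower, with a median of 0.06. Arnt2, a close relative that can replace Arnt, was higher by 2.701 in total RNA, from 518 counts against 32, by 1.34 in J2 and by 2.46 in Z22 RNA. Epas1, a hypoxia-inducible factor, was higher by 1.87 and the clock gene Per1 by 1.83. Hif3a had 73 counts against 0, at least 11.98-fold higher against the floor of 3 counts in the DMSO library, with a counting interval that starts at 3.25 on the log2 scale. In J2 RNA the list had 1 higher and 2 lower of 10 (median -0.20), where 8.61% of all genes were higher and 6% lower. There 1 of the 2 lower genes passed only through the DMSO library, and the other 9 genes had 1 higher, 1 lower and a median of -0.14. In Z22 RNA 5 of 11 were higher and 1 lower (median 0.76), where 52.1% of all genes were higher and 4.1% lower and their median was 1.06. Of the 5, Arnt2 passed there only through 5-Aza-CdR, and the lower gene passed only through DMSO. The other 9 had 4 higher, none lower and a median of 0.76.

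All 14 targets of hypoxia-inducible factors, which also use Arnt, passed in total RNA after 5-Aza-CdR. They had 7 higher, none lower and a median of 1.02. Car9 and Adm passed only through 5-Aza-CdR, and the other 12 had 5 higher, none lower and a median of 0.85. The shares of all genes there were 17% higher and 8.96% lower, with a median of 0.06. Car9, a carbonic anhydrase, had 482 counts against 0 and was at least 79.1-fold higher against the floor of 3 counts, and Adm, the adrenomedullin gene, had 199 against 0 and was at least 32.6-fold higher. Their counting intervals start at 6.001 and 4.72 on the log2 scale. Ndrg1 was higher by 2.63 and Ankrd37 by 2.62. The medians of both lists were the same with genes at 0 set to these bounds. In J2 RNA 1 of 12 was higher and 1 lower (median 0.51), where 8.61% of all genes were higher and 6% lower. In Z22 RNA 7 were higher and none lower of 12 (median 1.67), beside 52.1% of all genes and an all-gene median of 1.06, and without Ankrd37, which passed only through 5-Aza-CdR, the median was 1.10. Car9 had 3 counts or fewer in both kinds of precipitated RNA of DMSO- and 5-Aza-CdR-treated cells. In J2 RNA Adm went the other way, with 1 count after 5-Aza-CdR against 14 after DMSO, and it had 4 against 3 in Z22 RNA.

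In total RNA the co-regulators of AhR had 2 higher and 1 lower of 12 and a median of 0.10, close to the 17% and 8.96% of all genes and their median of 0.06. Relb, an NF-kappaB subunit that can bind AhR, was higher by 1.26, Rb1 by 0.66, and the estrogen receptor Esr1 was at -1.64. In J2 RNA none of the 12 was past the line (median -0.14), where 8.61% of all genes were higher and 6% lower. In Z22 RNA 4 were higher and 1 lower (median 0.65), where 52.1% of all genes were higher and 4.1% lower and their median was 1.06. Of 11 enzymes that form or clear tryptophan-derived ligands, 4 passed in total RNA, with none higher, 1 lower and a median of 0.49. These were too few to set against the 17% and 8.96% of all genes. Kyat3, a kynurenine aminotransferase, was at -1.41 in total RNA, 0.87 in J2 and 2.13 in Z22 RNA. Afmid, which forms kynurenine, was at 0.61 in total RNA, -1.97 in J2 and 0.41 in Z22 RNA, and was the list's single gene past the line in J2 RNA, from 26 counts against 111. Kyat1 was at 0.96, -0.14 and 0.81 and the amino acid oxidase Il4i1 at 0.38, 0.65 and -0.28 in the same order.

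**Figure D5:**
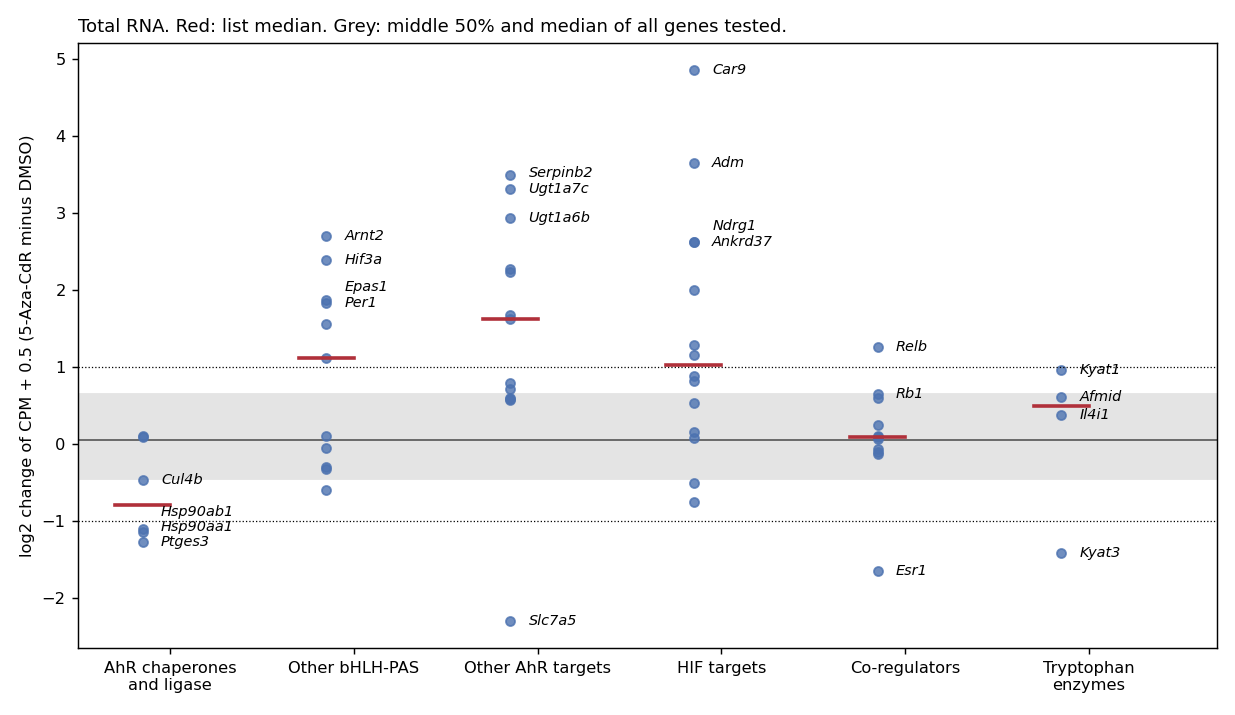
Log2 difference of CPM + 0.5 between 5-Aza-CdR and DMSO in total RNA (y axis) of the genes that passed the filter in 6 lists (x axis), 1 co-regulator not shown, with list medians in red, the middle 50% and the median of all genes in grey and dotted 2-fold lines. Other AhR targets and targets of hypoxia-inducible factors have medians of 1.62 and 1.02, and the receptor complex has -0.79, and without genes that passed only through 5-Aza-CdR the first 2 are 0.75 and 0.85.

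The genes whose levels followed the members most closely were sought over the 12 libraries by Pearson correlation of log2 CPM + 0.5 among 13993 genes. Closest to Ahr were Rtn4 (r = 0.983), Snapin (0.977) and Bnip3l (0.976), and closest to Tiparp were Ndfip1 (0.988), Hibadh (0.981) and Rdh10 (0.981). Without the Z22 library of DMSO-treated cells, in which both members were lowest, r was 0.951 for Rtn4 and 0.956 for Ndfip1. Cdip1 (0.961), Pcdhb18 (0.951) and Foxn3 (0.9496) were closest to Arnt. For Cyp1a1, whose counts are sparse, Gm16685 (0.966), Procr (0.931) and Nlrp3 (0.909) were closest. Ahr and Tiparp had r = 0.939 with each other, or 0.812 without that library, and Ahr and Arnt had 0.691, or 0.608. The 12 points share kinds of RNA and treatments, so these values describe the libraries only.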

How the data were processed

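The authors mapped paired reads of Ribo-Zero libraries with STAR in snakePipes to mm10 and deposited raw counts per gene for 13 libraries. The counting tool and its strand setting are not given in the sources used here, so overlapping genes are uncertain. Ids were matched without version to GENCODE M21 (54409 of 54532). Counts were divided by the library's sum over genes to give CPM, and 0.5 was added before log2. Genes averaging 1 CPM or more in a comparison were counted at 2-fold. Intervals are exact Poisson intervals of levels and Clopper-Pearson intervals of ratios (95%), for counting error only, and a floor of 3 counts was used. No test was run, with 1 library per condition. The calculation was tested on simulated data. Members and lists were chosen with earlier results of these data known, so no list is independent support. Named were all members, the 4 genes of each list with the largest change in total RNA of 5-Aza-CdR against DMSO, and the 3 genes most correlated with each member that reached 1 CPM. Of these, 1 gene is not reported here. Motifs were searched on both strands of RefSeq promoters. Alternatives were edgeR 4.0.16 TMM factors, DESeq2 1.42.0 size factors, totals without the 20 largest genes, centring, pseudocounts of 0.1 and 2 CPM, no filter or 10 CPM, and a 4-fold line. Python 3.11.15, numpy 2.4.6, pandas 2.3.3, scipy 1.17.1 and R 4.3.3 were used.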

Additional observations from a re-analysis of the deposited data

Results flagged for a closer look

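Opposite directions between kinds of RNA under the same treatment, with both counting intervals clear of 0, marked 5 results, and none of these differences was tested. Arnt with 5-Aza-CdR against DMSO was at 0.12 on the log2 scale in total RNA and -0.67 in J2 RNA. In Z22 RNA it was at 0.92, opposite to -0.67 in J2 RNA. Arnt with ADAR1i-124 was at -0.30 in total RNA and -0.65 in J2 RNA, opposite to 0.41 in Z22 RNA in both cases. After subtracting the median of all genes, the Z22 values of Arnt were -0.14 and -0.40, on the same side as J2. Tiparp with ADAR1i-124 was at -0.54 in total RNA and 2.07 in Z22 RNA, where it kept its sign after centring, at 1.26. Each comparison rests on a pair of libraries, and all Z22 comparisons with DMSO share the library in which Gm42418 held 34.9% of counts.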

How the results depend on the processing

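Of 108 recomputed counts of members past the 2-fold line, 98 stayed within 1.5 times the reported count and 10 moved. In most comparisons the reported count was 0, and counts that stayed at 0 are among the 98, which says little of stability. In total RNA of 5-Aza-CdR against DMSO the reported count of 1, Ahr, became 0 with TMM factors, with DESeq2 size factors, after centring on the median, with a pseudocount of 2 CPM and at a 4-fold line, and 2, Ahr and Cyp1a1, without the filter on low values. Without that filter the count became 1, Cyp1a1, in place of 0 in J2 RNA of 5-Aza-CdR against DMSO, in total RNA of ADAR1i-124 against DMSO, and in J2 and Z22 RNA of the combination against ADAR1i-124. The difference of Arnt in Z22 RNA ranged from -0.15 to 0.92 with 5-Aza-CdR and from -0.45 to 0.41 with ADAR1i-124 over 7 settings of scaling, centring and pseudocount. Correlations and ranges of levels were recomputed without the Z22 library of DMSO-treated cells, and the gene lists without genes that passed the filter through 1 library only, and the sums of low genes by treatment without each library, choices made after seeing the data. The second lowered the median of other AhR targets in total RNA after 5-Aza-CdR from 1.62 to 0.75. No condition has replicates whose numbers could pair samples. A fit that pairs treatments across kinds of RNA, with the kind of RNA as a block, was not run. Cyp1a1, Cyp1b1 and Ahrr rest on at most 22 counts per library, and the depth limits what can be said of them.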
